A study of Mus musculus with 12 samples.

Results

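The 10 genes described here encode the parts of the MHC class I presentation pathway and of the immunoproteasome: B2m, H2-K1, H2-D1, Tap1, Tap2, Tapbp, Psmb8, Psmb9, Psmb10 and the class I transactivator Nlrc5. They were chosen by name, out of 23579 genes with a symbol on either array design, and every probe whose accession belongs to one of them was used. Their RNA was measured on 12 single-colour arrays of microglia, the resident macrophages of the brain, which were enriched magnetically by their fractalkine receptor CX3CR1. All mice were males of 8 weeks. After tMCAO, a stroke model in which a brain artery is blocked for a time and then reopened, the groups were ZEB1-overexpression, ZEB1-knock down and WT (wild type). Before tMCAO the same 3 genotypes were sampled, so that there were 6 groups of 2 arrays. ZEB1 is a zinc-finger transcription factor. What drives its overexpression, in which cells, and how the knock down was made are not given in the sources used here. Nothing states that the 2 samples of a group came from separate animals, so the p-values below reflect how much the arrays of a group differ, which may be technical variation alone.

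Class I molecules show the peptides of a cell's own proteins to CD8 T cells and natural killer cells. Peptides are cut by the proteasome, whose catalytic subunits are exchanged for the immunoproteasome subunits Psmb8, Psmb9 and Psmb10 in cells exposed to interferon. They are carried into the endoplasmic reticulum by the transporter of Tap1 and Tap2, and loaded, with the help of Tapbp (tapasin), onto a heavy chain such as H2-K1 or H2-D1 paired with the light chain B2m. Nlrc5 is known to bind class I promoters through a module of X and Y boxes and to raise transcription of most of these genes. Microglia are known to express the pathway at rest and to raise it under interferon.

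The promoter stretches below are printed because they hold some of the letters found in the boxes through which Nlrc5 and interferon are known to act. Tap1 and Psmb9 share the third stretch. Of these Tap1 passed the threshold in a comparison below with both arrays of each group used, and Psmb9 did not. The stretches are RefSeq sequence of build GRCm38.p6, and windows were found for 8 of the 10 genes, those of Tap2 and Nlrc5 not being analysed here. Capitals mark GGGGATTCC (within the NF-kappaB site of class I enhancer A), AANNGAAA (bound by interferon regulatory factors), TGACG (as in the X2 box) and CCAAT (the Y box), each searched on both strands. The first is the 250 bases before the start of H2-D1, chr17:35262844-35263093, plus strand.
H2-D1: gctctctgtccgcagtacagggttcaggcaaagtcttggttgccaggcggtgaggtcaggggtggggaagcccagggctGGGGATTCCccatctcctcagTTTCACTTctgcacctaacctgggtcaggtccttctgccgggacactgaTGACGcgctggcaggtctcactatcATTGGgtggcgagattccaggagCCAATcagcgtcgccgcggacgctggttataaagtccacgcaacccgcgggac
The second is the 250 bases before the start of B2m, chr2:122147437-122147686, plus strand.
B2m: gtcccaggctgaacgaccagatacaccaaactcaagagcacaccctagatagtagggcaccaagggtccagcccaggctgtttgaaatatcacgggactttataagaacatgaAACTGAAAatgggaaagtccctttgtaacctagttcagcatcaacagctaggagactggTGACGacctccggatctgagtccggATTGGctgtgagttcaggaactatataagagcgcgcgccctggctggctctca
The third is the whole interval of 225 bases between the starts of Psmb9 and Tap1, genes that are read in opposite directions, chr17:34187331-34187555, plus strand, with the start of Tap1 at its right end.
Tap1-Psmb9 intergenic: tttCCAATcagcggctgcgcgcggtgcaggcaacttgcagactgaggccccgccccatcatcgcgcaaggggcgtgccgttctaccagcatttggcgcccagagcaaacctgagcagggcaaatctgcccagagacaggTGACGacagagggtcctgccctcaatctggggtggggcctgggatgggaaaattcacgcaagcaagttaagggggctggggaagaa
The enhancer of the H2-K1 and H2-D1 heavy chain genes is shown as 30 bases of each, chr17:34000429-34000458 on the minus strand and chr17:35262923-35262952 on the plus strand.
H2-K1 enhancer A: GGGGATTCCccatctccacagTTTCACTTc
H2-D1 enhancer A: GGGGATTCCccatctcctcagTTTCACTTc
These stretches differ by 1 substitution, A18T, with the base of H2-K1 first and positions counted from 1 at the 5′ end. GGGGATTCC was present in 82 of 32851 promoter windows of 300 bases (0.25%), among them those of H2-K1 and H2-D1. TGACG and CCAAT stood together in the windows of B2m, H2-K1, H2-D1, Tap1 and Psmb9, against 7.73% of all windows. Their spacing differed: in the stretch of B2m TGACG started at -78 and CCAAT at -53 from the gene's start. In that of Tap1 CCAAT came first, at -222, and TGACG at -86. AANNGAAA, present in 23.9% of all windows, was found for B2m, H2-K1 and H2-D1, and not for Tap1 or Psmb9. A match is a run of letters and was not tested as a binding site. Psmb9, Tap1, Psmb8 and Tap2 are consecutive genes on chromosome 17, which also carries Tapbp, H2-K1 and H2-D1, whereas B2m lies on chromosome 2 and Nlrc5 and Psmb10 on chromosome 8.

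The arrays were of 2 designs, each on a single slide. ZEB1-overexpression and WT after tMCAO lay on a slide of 4 arrays and the other 4 groups on a slide of 8, so levels are compared only within a slide. All levels are log2 of the background-subtracted fluorescence minus the 75th percentile of the array, which stood at 1078 to 1515 units of intensity for the slide of 4 arrays and at 2566 to 3702 for the slide of 8. On both slides the groups compared lay in different rows, except ZEB1-overexpression and ZEB1-knock down before tMCAO, which lay in different columns. On the 8-array slide ZEB1-knock down after tMCAO and ZEB1-overexpression before tMCAO lay in columns 1 and 2. WT and ZEB1-knock down before tMCAO lay in columns 3 and 4. Position on the slide and group therefore cannot be told apart. Among the genotype comparisons, Zeb1 separated as labelled only for ZEB1-overexpression over WT before tMCAO, and there on a single probe. After tMCAO its level was -0.08 and 0.56 under the label ZEB1-overexpression, against 0.12 and 0.41 under WT, so the groups overlapped. Before tMCAO a Zeb1 probe read -0.28 and -0.36 under ZEB1-overexpression and -0.11 and -0.79 under ZEB1-knock down, against -0.57 and -0.59 under WT. ZEB1-overexpression thus lay above WT on this probe, while the ZEB1-knock down arrays lay on either side of WT. A second probe overlapped between the genotypes before tMCAO, with -0.42 and -0.31 under ZEB1-overexpression and -0.24 and -0.68 under ZEB1-knock down, against -0.40 and -0.64 under WT. The ZEB1-knock down arrays after tMCAO read -0.66 and -0.67 on the first of these probes and -0.98 and -0.81 on the second. Genotype names below are those of the labels. Of the 12 microglia markers listed, Cx3cr1, P2ry12 and Tmem119 among them, all 12 were well above background on every array, and so were the 8 neuron, 7 astrocyte and 8 oligodendrocyte markers. In WT before tMCAO, levels summed to 43.4 and 41.7 times the 75th percentile for microglia markers and 60.8 and 64.3 for neuron markers. They summed to 42.1 and 45.2 for astrocyte and 50.5 and 45.8 for oligodendrocyte markers. In WT after tMCAO, on the other slide, microglia markers summed to 156 and 148 and neuron markers to 53.1 and 51.2. Such sums over different probes do not measure shares of cells.

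The 10 genes were read by 12 probes on the 4-array slide, all of which passed the filter on dim probes, and by 15 on the 8-array slide, of which 14 passed. No spot of theirs was saturated. The scanner software marks spots as non-uniform or as outliers, and many spots of these genes were marked. On the 4-array slide every spot of 7 and 5 of the 10 genes was marked in the ZEB1-overexpression arrays after tMCAO, and of 6 and 7 genes in WT, where 6.57% to 20.3% of all probes on the slide were so. On the 8-array slide the counts were 4 and 5 genes in ZEB1-knock down after tMCAO, 4 and 3 in ZEB1-overexpression before tMCAO, and 0 in the 4 other arrays. Those 4 arrays lay in columns 3 and 4, where 1.03% to 3.28% of all spots were marked, against 18.2% to 23.7% in columns 1 and 2. Each comparison is therefore given with marked spots left out and with them kept. RNA of a cell mixture was measured, so fewer cells of a type and less RNA per cell cannot be told apart.

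After tMCAO, Nlrc5 and Tap1 were higher in ZEB1-overexpression microglia than in WT with marked spots kept. They also passed with marked spots left out, where Nlrc5 rests on a single ZEB1-overexpression array. With marked spots left out only 4 of the 10 genes had a value in both groups, and these 2 passed an adjusted p of 0.05, both upward, against 2.34% of the 22072 genes tested in either direction (351 called genes higher and 165 lower). With them kept all 10 were tested, the same 2 passed, as did 3.2% of the 27935 genes tested in either direction (546 called genes higher and 349 lower). With marked spots kept, all 10 differences were above 0, with a median of 0.35 on the log2 scale, while the median over all genes was -0.10 and 41.5% of genes were above 0. In 7 of the 10 genes both ZEB1-overexpression arrays lay above both WT arrays, as did 21.6% of all genes, and in 0 of the 10 genes both lay below, as did 33.8% of all genes.

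**Figure D1:**
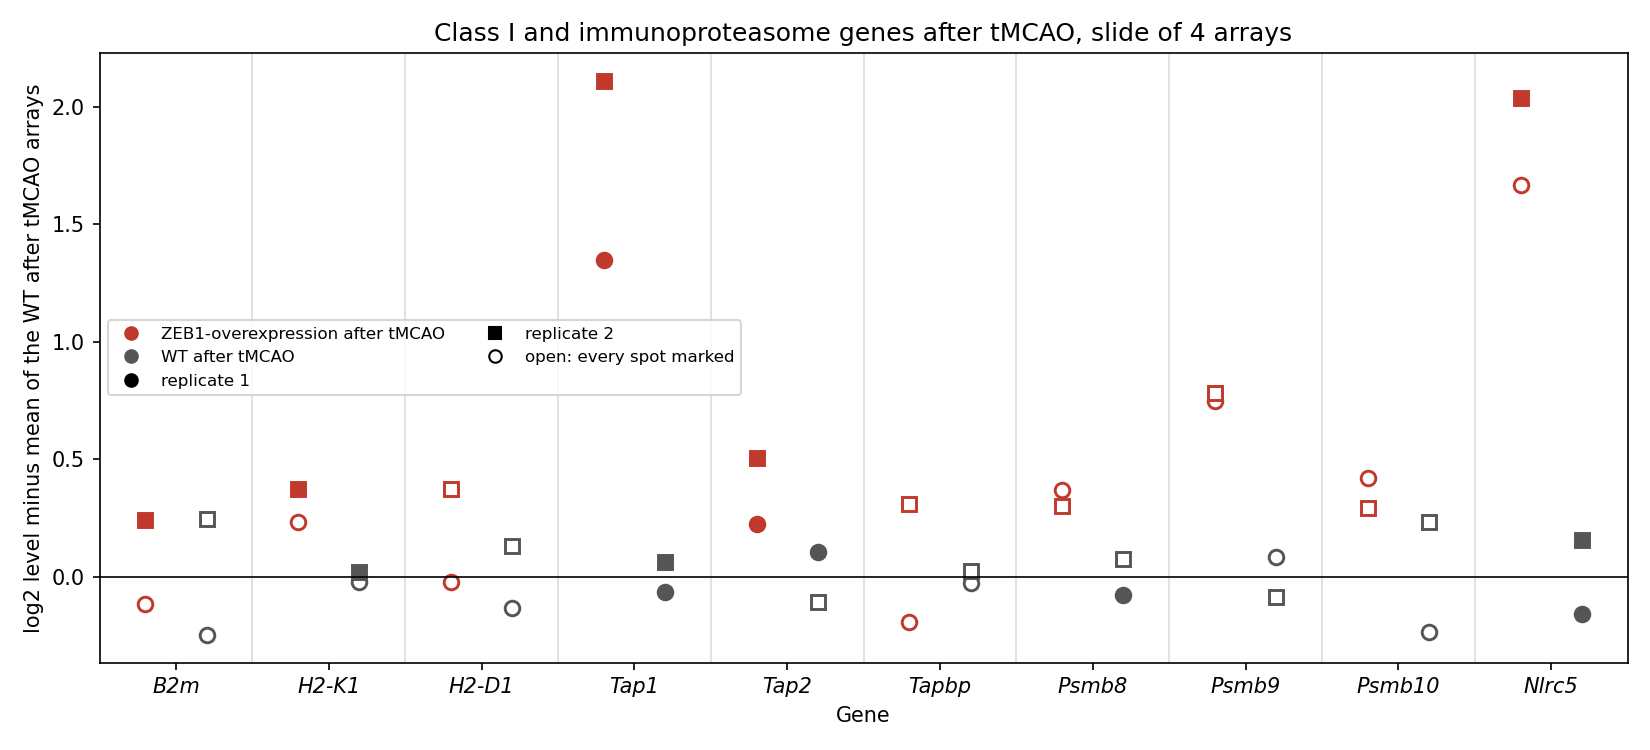
Levels of the 10 genes after tMCAO on the 4-array slide, for ZEB1-overexpression and WT. They are log2 of signal over the array's 75th percentile, minus the mean of the WT arrays for that gene. Each point is 1 array with all spots kept, and open points are values that rest on marked spots alone. Nlrc5 and Tap1 show the widest gaps between the groups, and the points of B2m, H2-D1 and Tapbp overlap.

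Nlrc5, the transactivator, lay at 2.26 and 2.63 in ZEB1-overexpression after tMCAO, against 0.44 and 0.75 in WT. The lower ZEB1-overexpression value comes from a marked spot. The log2 fold change was 1.85 ± 0.26 (SE, n = 2 each, 95% interval 1.24 to 2.46, limma adjusted p = 0.0178), or 3.61-fold, with marked spots kept, and 2.04 ± 0.33 (adjusted p = 0.0424) on the 1 ZEB1-overexpression array left without marked spots, the higher of the pair, for which the spread comes from the WT arrays alone and that shared over genes. A second, dim Nlrc5 probe did not show the difference, with -4.26 and -3.22 in ZEB1-overexpression, against -3.74 and -3.65 in WT. Its log2 fold change was -0.04 ± 0.36 (limma adjusted p = 0.956), so the call rests on 1 of the 2 probes of this gene. Without WT replicate 1 or replicate 2 the log2 fold change was 1.69 or 2.01 with marked spots kept, and the call was lost (limma adjusted p = 0.122 and 0.0526).

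Tap1, the subunit that forms the peptide transporter with Tap2, was read by a probe printed 10 times on this slide. The mean over its spots was -0.75 and 0.01 in ZEB1-overexpression after tMCAO, against -2.16 and -2.04 in WT. The SD over the 10 spots ran from 0.08 to 0.21 within an array, which measures the repeat of a spot and not of a sample, and the ZEB1-overexpression arrays lay further apart than that. The log2 fold change was 1.73 ± 0.30 (SE, n = 2 each, 95% interval 1.01 to 2.45, limma adjusted p = 0.0366), or 3.32-fold, with marked spots kept. With the single marked spot left out it was 1.72 ± 0.32 (adjusted p = 0.0460). Here too the call was lost without WT replicate 1 or replicate 2, at 1.67 and 1.79 with marked spots kept (limma adjusted p = 0.185 and 0.106). Quantile normalization left Nlrc5 at 2.13 and Tap1 at 1.74 without a call (limma adjusted p = 0.0567 and 0.0631), and without the filter on dim probes the array held no call for any gene. Tap2 showed a small gap in the same direction, with 2.47 and 2.76 in ZEB1-overexpression and 2.36 and 2.15 in WT, a difference of 0.36 ± 0.24 that did not pass (limma adjusted p = 0.407). Tapbp, which bridges the transporter and the empty class I molecule, overlapped between the groups, with 2.28 and 2.78 in ZEB1-overexpression, against 2.44 and 2.49 in WT.

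**Figure D2:**
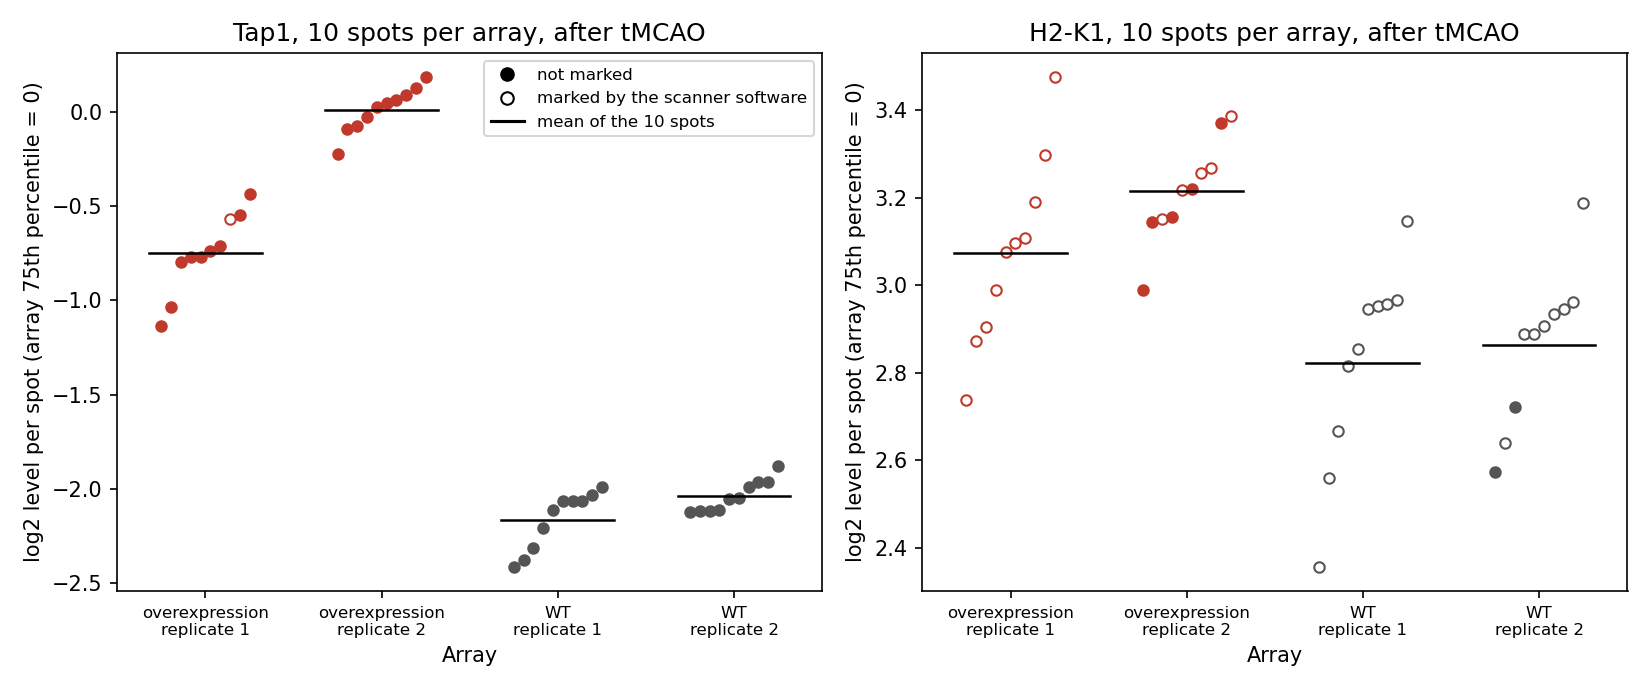
Levels of the 10 spots of the Tap1 probe and of the 10 spots of an H2-K1 probe on each array after tMCAO, as log2 of signal over the array's 75th percentile, with marked spots drawn open. The Tap1 spots of the ZEB1-overexpression arrays lie above all those of the WT arrays, while those of H2-K1 lie closer together and nearly all are marked on 3 of the 4 arrays.

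The immunoproteasome subunits were all marked in both ZEB1-overexpression arrays after tMCAO and could be tested only with marked spots kept. Psmb9, which takes the place of the constitutive subunit Psmb6, lay at 3.38 and 3.42 in ZEB1-overexpression, against 2.72 and 2.55 in WT. Its groups did not overlap, and its log2 fold change of 0.77 ± 0.23 (SE, n = 2 each, 95% interval 0.23 to 1.30) did not pass after adjustment (limma adjusted p = 0.112). Psmb8, which replaces Psmb5, lay at 3.15 and 3.08 in ZEB1-overexpression, against 2.71 and 2.86 in WT. Psmb10, which replaces Psmb7, lay at 3.44 and 3.31 in ZEB1-overexpression, against 2.78 and 3.25 in WT. The differences of 0.34 and 0.36 for these subunits did not pass (limma adjusted p = 0.417 and 0.445).

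None of the heavy and light chains passed. The 10-spot probe of H2-K1 averaged 3.08 and 3.22 in ZEB1-overexpression after tMCAO, against 2.82 and 2.86 in WT, a log2 difference of 0.30 ± 0.22 (limma adjusted p = 0.461). On the few unmarked spots, which left 1 array a group and so no replicates, it was 0.53. H2-D1 lay at 2.36 and 2.75 in ZEB1-overexpression and at 2.25 and 2.51 in WT, and B2m at 2.50 and 2.85 in ZEB1-overexpression and at 2.36 and 2.86 in WT. The 95% interval of the H2-D1 difference, -0.43 to 0.78, lay below the log2 fold changes of Nlrc5 and Tap1. It rests on marked spots alone and on the spread between arrays, which may be technical. H2-K1 and H2-D1 are close copies, and RNA of either may bind the other's probe, so their values are uncertain as measures of the single gene.

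Genes that work beside the 10 were counted from lists of names, with marked spots kept. Among genes of class I transcription and interferon signalling, 5 of 27 were higher and 0 lower in ZEB1-overexpression than in WT after tMCAO, with a median log2 fold change of 0.37, while 3.2% of all genes were called in this fit. Irf7, which drives type I interferon transcription, rose most, with 0.98 and 1.81 in ZEB1-overexpression, against -2.74 and -2.26 in WT (log2 fold change 3.89 ± 0.34, limma adjusted p = 0.0060). Socs1, a feedback inhibitor of JAK-STAT signalling, rose by 2.35 and Irf1 by 1.26 on the log2 scale. With marked spots left out, 1 of the 18 genes tested passed, Socs1 at 2.74. Of 14 other class I heavy chains 1 was higher, H2-T10 at 1.81 ± 0.24 (limma adjusted p = 0.0153), and 13 of the 14 differences were above 0. Of 10 loading and trimming partners, 2 were higher. They were Sppl2a, an intramembrane protease, at 2.19 and Lnpep, an aminopeptidase of cross-presentation, at 1.39. With marked spots left out 0 of the 5 other heavy chains tested passed, and 1 of the 3 loading and trimming partners tested. None of the 14 constitutive proteasome core subunits passed, and their median was -0.04, near that of all genes. Psma5 at 0.45 and Psma4 at -0.43 had the largest differences among them. Of 9 activators and assembly factors 0 passed, with a median of -0.0014.

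Markers of other cells also differed between these groups, given here with marked spots kept. In that fit 3.2% of all 27935 genes were called, 546 higher and 349 lower. Of all differences 41.5% were above 0, with a median of -0.10. Of the endothelial and mural markers 4 of 12 were called lower, Tie1 by 2.11 and Cldn5 by 1.52 on the log2 scale among them. Only 1 of the 12 differences was above 0, with a median of -1.02. Their summed level was 15.7 and 15.3 times the 75th percentile in ZEB1-overexpression, against 26.7 and 27.9 times in WT. With marked spots left out 8 of these markers could be tested and 0 passed, with a median of -1.06. Lymphocyte markers had a median difference of 0.68 over 16 genes, none of which passed, and summed to 19.6 and 36.0 in ZEB1-overexpression, against 16.3 and 18.3 in WT. Monocyte and border macrophage markers summed to 47.4 and 48.0 in ZEB1-overexpression, against 34.9 and 31.5 in WT, with 0 of 9 genes past the threshold. Of the neutrophil markers 1 of 11 was called higher, Elane by 2.01, and 8 of the 11 differences were above 0, with a median of 0.40. They summed to 121 and 112 in ZEB1-overexpression, against 111 and 90.8 in WT. With marked spots left out 5 of the neutrophil markers could be tested and 1 was called higher. The 12 microglia markers had a median of -0.12 with 0 calls. The neuron markers had 0 of 8 differences above 0, with a median of -0.32 and 0 calls, and summed to 46.8 and 33.0 in ZEB1-overexpression, against 53.1 and 51.2 in WT. Of the oligodendrocyte markers 1 of 8 differences was above 0, again with 0 calls, and they summed to 23.5 and 24.9 in ZEB1-overexpression, against 30.5 and 30.8 in WT. Astrocyte markers, 3 of 7 above 0 with 0 calls, summed to 36.7 and 35.8 in ZEB1-overexpression, against 44.2 and 42.0 in WT. The summed level of the 10 class I and immunoproteasome genes was 65.1 and 73.2 in ZEB1-overexpression, against 49.1 and 54.8 in WT. The part of these other cells in the result was not tested.

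Before tMCAO the 3 genotypes were close. None of the 10 genes passed in any of the 3 comparisons, in which 0 genes of the whole array were called with limma (percent called 0.0). Between 2452 and 3997 of the 30525 genes had an unadjusted limma p under 0.05 in these comparisons with marked spots kept. With marked spots left out the counts ran from 2653 to 3715. Quantile normalization, an alternative, called 6, 1 and 6 genes for ZEB1-overexpression against WT, ZEB1-knock down against WT and ZEB1-overexpression against ZEB1-knock down, none of them one of the 10.

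**Figure D3:**
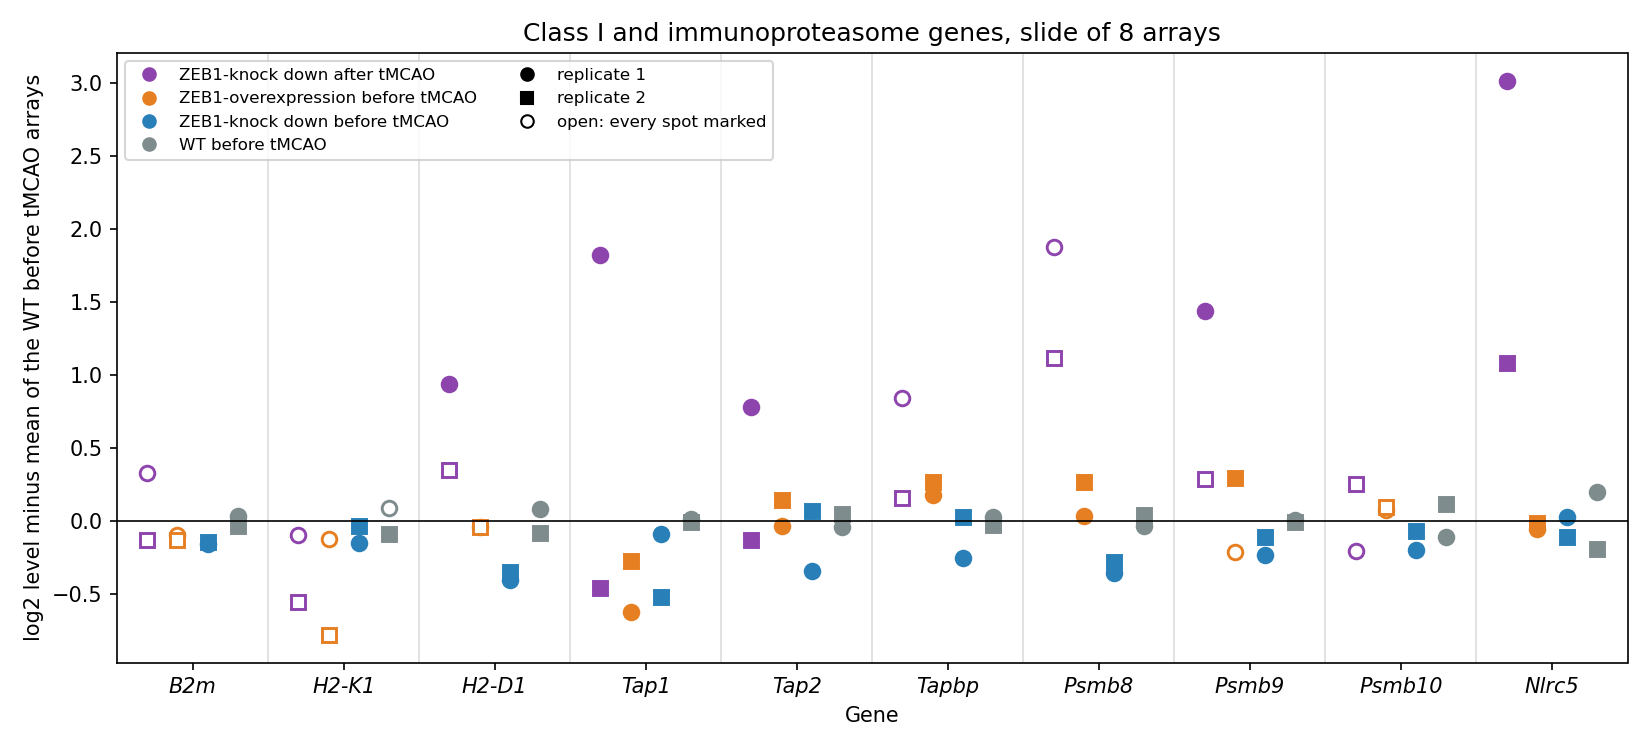
Levels of the 10 genes on the 8-array slide, for ZEB1-knock down after tMCAO and for ZEB1-overexpression, ZEB1-knock down and WT before tMCAO. They are log2 of signal over the array's 75th percentile, minus the mean of the WT arrays before tMCAO for that gene. Each point is 1 array with all spots kept, and open points rest on marked spots alone. None of the 10 genes was called between the groups before tMCAO, and replicate 1 of ZEB1-knock down after tMCAO stands above the other arrays for Nlrc5, Tap1, Psmb8 and Psmb9.

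In ZEB1-overexpression before tMCAO, Nlrc5 lay at -4.11 and -4.07, against -3.86 and -4.25 in WT, a difference of -0.04 ± 0.57 (limma adjusted p = 0.988) with marked spots kept. The other 9 genes differed by -0.45 (H2-K1 and Tap1) to 0.22 (Tapbp), with 5 of the 10 above 0 and a median of 0.000748. H2-K1 lay at 1.92 and 1.26 in ZEB1-overexpression, against 2.13 and 1.95 in WT, on the probe with the higher mean, and at 1.34 and 1.46 in ZEB1-overexpression, against 1.37 and 1.33 in WT, on the other. In 1 gene, Tapbp, both ZEB1-overexpression arrays lay above both WT arrays, as did 22.8% of all genes. The reverse held in 3 of the 10 genes, and in 24.5% of all genes. A second, dim Tapbp probe went the other way from the first, with -4.02 and -4.03 in ZEB1-overexpression, against -3.73 and -3.80 in WT.

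In ZEB1-knock down before tMCAO all 10 differences from WT were below 0 on the probe of highest mean level of each gene. Their median was -0.15 on the log2 scale, beside a median over all genes of -0.07 at which 38.6% of genes were above 0. The second Tapbp probe lay above WT instead, with -3.54 and -3.67 in ZEB1-knock down, against -3.73 and -3.80 in WT. The arrays of the groups did not overlap in 5 genes (B2m, H2-D1, Tap1, Psmb8 and Psmb9), as in 30% of all genes in this direction, and the reverse held in 0 genes, against 13.9% of all. H2-D1 had the widest difference, with 1.17 and 1.23 in ZEB1-knock down, against 1.67 and 1.5 in WT (-0.38 ± 0.22, SE, n = 2 each, limma adjusted p = 0.819). Psmb8 lay at 0.03 and 0.10 in ZEB1-knock down, against 0.35 and 0.42 in WT, a difference of -0.32 ± 0.26 (limma adjusted p = 0.935). Nlrc5 lay at -4.03 and -4.17 in ZEB1-knock down, against -3.86 and -4.25 in WT, so its groups overlapped.

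ZEB1-overexpression lay above ZEB1-knock down before tMCAO without overlap in 5 genes (B2m, H2-D1, Tapbp, Psmb8 and Psmb10), as did 31.8% of all genes, and below it in 0, against 19.4%. On its second probe Tapbp lay below instead, with -4.02 and -4.03 in ZEB1-overexpression, against -3.54 and -3.67 in ZEB1-knock down. Psmb8 differed most, with 0.42 and 0.65 in ZEB1-overexpression, against 0.03 and 0.10 in ZEB1-knock down (0.47 ± 0.26, limma adjusted p = 0.465). These comparisons share arrays, so their values are not independent of each other. None of the lists of neighbouring genes held a call before tMCAO. The interferon list had medians of -0.05 for ZEB1-overexpression over WT and -0.09 for ZEB1-knock down over WT, with Tyk2 at -0.54 in ZEB1-knock down as the largest difference of the second comparison.

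In ZEB1-knock down microglia after tMCAO, set against ZEB1-knock down before tMCAO, the heavy chain H2-D1 and the subunit Psmb8 were higher with marked spots kept. With marked spots left out 5 of the 10 genes could be tested and 2 passed, H2-D1 and Psmb9, each on the single unmarked array of ZEB1-knock down after tMCAO, the higher of the pair, which was taken to vary like the arrays of the other groups, while 18.1% of the 24646 genes tested were called in either direction, 2728 higher and 1732 lower. With marked spots kept 2 of 10 passed, Psmb8 and H2-D1, a share near that of all genes. Of 30525 genes 16.6% were called in either direction, 3088 higher and 1974 lower. The median log2 fold change of the 10 was 0.80, beside 0.04 over all genes, and 9 of the 10 were above 0. In 6 genes the groups did not overlap, as in 33.6% of all genes in this direction, and the reverse held in 0 of the 10, against 28.4% of all genes.

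Psmb8 lay at 2.26 and 1.50 in ZEB1-knock down after tMCAO, both marked, against 0.03 and 0.10 before tMCAO. Its log2 fold change was 1.82 ± 0.26 (SE, n = 2 each, 95% interval 1.19 to 2.45, limma adjusted p = 0.0101), or 3.52-fold, with marked spots kept, and it could not be tested without them. Without replicate 1 or replicate 2 of ZEB1-knock down before tMCAO it was 1.78 or 1.85, short of the threshold (limma adjusted p = 0.0634 and 0.0653). Psmb9 lay at 1.02 and -0.13 in ZEB1-knock down after tMCAO, against -0.65 and -0.53 before tMCAO. The higher array alone, the only unmarked one, gave 1.61, and both arrays together 1.03 ± 0.38, which did not pass (limma adjusted p = 0.108). Psmb10 overlapped between the groups, with 2.64 and 3.10 in ZEB1-knock down after tMCAO, against 2.64 and 2.77 before tMCAO.

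H2-D1 lay at 2.52 and 1.93 in ZEB1-knock down after tMCAO, against 1.17 and 1.23 before tMCAO. Its log2 fold change was 1.02 ± 0.22 (SE, n = 2 each, 95% interval 0.50 to 1.55, limma adjusted p = 0.0292), or 2.03-fold, with marked spots kept. On the single unmarked array after tMCAO it was 1.32. With marked spots kept the call was lost without replicate 1 of ZEB1-knock down after tMCAO, at 0.72 (limma adjusted p = 0.0577). It was lost as well without either array of ZEB1-knock down before tMCAO (limma adjusted p = 0.120 and 0.122) or of WT before tMCAO (limma adjusted p = 0.0524 and 0.0525), which enters through the shared spread. Its close copy H2-K1 gave opposite signs with its 2 probes. One lay at 1.95 and 1.48 in ZEB1-knock down after tMCAO, against 1.89 and 2.0 before tMCAO, a difference of -0.23 ± 0.27. The other lay at 2.27 and 1.35 in ZEB1-knock down after tMCAO, against 0.95 and 1.15 before tMCAO, a difference of 0.75 ± 0.30 (limma adjusted p = 0.127). B2m lay at 3.37 and 2.92 in ZEB1-knock down after tMCAO, against 2.89 and 2.91 before tMCAO, and its difference of 0.25 ± 0.18 did not pass (limma adjusted p = 0.381).

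Nlrc5 lay at -1.04 and -2.97 in ZEB1-knock down after tMCAO, against -4.03 and -4.17 before tMCAO, with no marked spot. Both arrays after tMCAO lay above both before it, yet the wide gap between them left the log2 fold change of 2.09 ± 0.57 short of the threshold (95% interval 0.72 to 3.47, limma adjusted p = 0.0536 with marked spots kept, 0.0538 with them left out). Without replicate 2 of ZEB1-knock down after tMCAO it was 3.06 (limma adjusted p = 0.00489), and without replicate 1 it was 1.12 (limma adjusted p = 0.0381). Its second probe was well above background only on replicate 1 before tMCAO among these 4 arrays, and gives no fold. Tap1 lay at 0.13 and -2.15 in ZEB1-knock down after tMCAO, against -1.78 and -2.21 before tMCAO, so that 1 array was high and the other was not (0.99 ± 0.67, limma adjusted p = 0.337). Without replicate 1 of ZEB1-knock down after tMCAO its difference turned to -0.15. On its second, dimmer probe replicate 1 after tMCAO was again the highest, and the groups did not overlap, with -2.66 and -4.85 in ZEB1-knock down after tMCAO, against -5.37 and -6.08 before tMCAO, the last of these not well above background.

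Tap2 lay at 0.63 and -0.28 in ZEB1-knock down after tMCAO, against -0.50 and -0.09 before tMCAO. Its second probe was not well above background on any array of the slide. Tapbp lay at 2.12 and 1.44 in ZEB1-knock down after tMCAO, against 1.02 and 1.31 before tMCAO (0.61 ± 0.25, limma adjusted p = 0.133). A dim second Tapbp probe went the other way, by -0.40 ± 0.16 (limma adjusted p = 0.134).

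**Figure D4:**
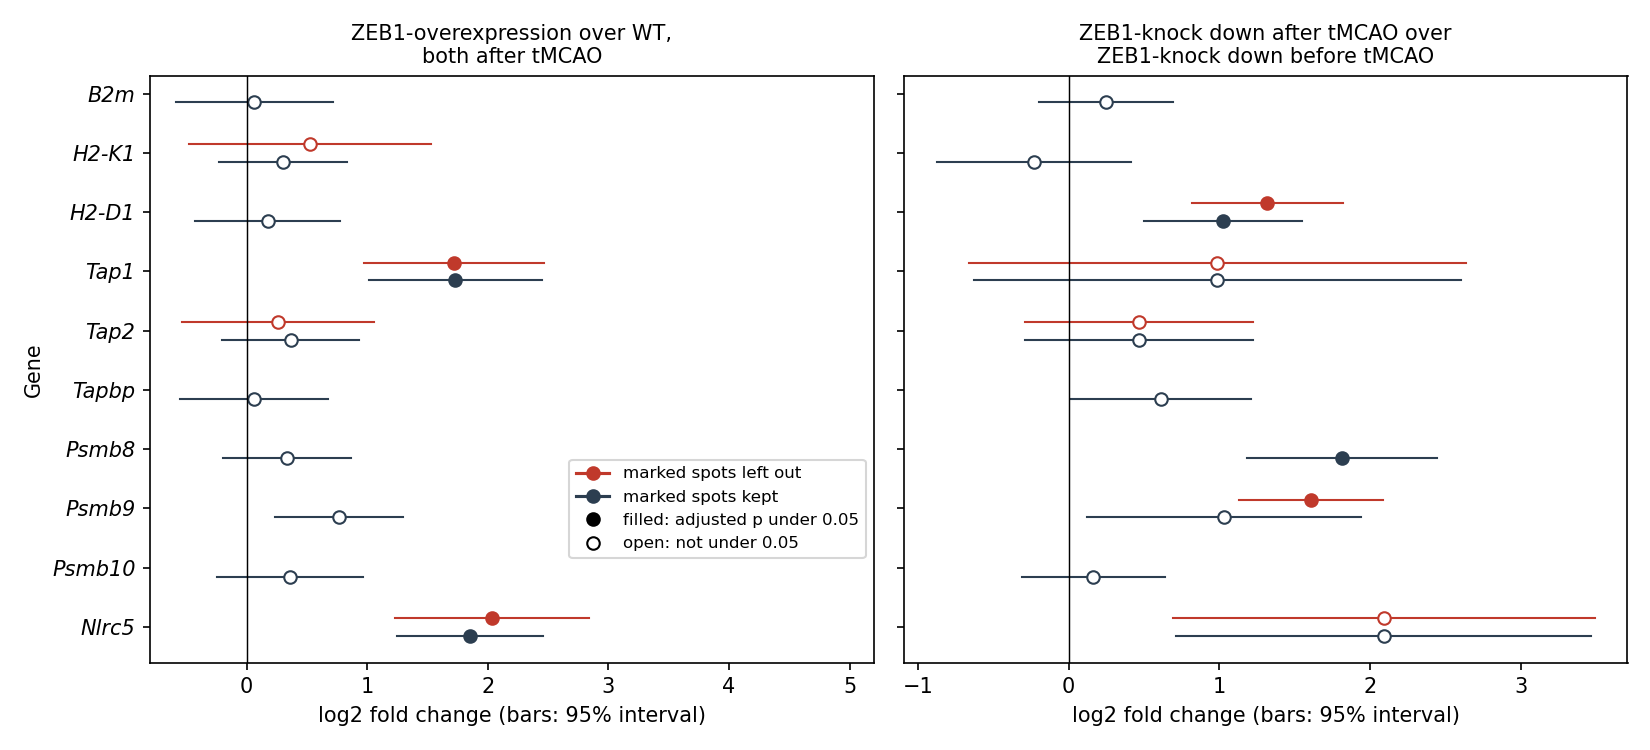
Log2 fold changes of the 10 genes with 95% intervals from limma, for ZEB1-overexpression over WT after tMCAO in the left panel and ZEB1-knock down after over before tMCAO in the right panel, with marked spots left out and kept. Filled points have an adjusted p under 0.05, and a missing point could not be tested without marked spots. With marked spots left out, the interval of H2-K1 in the left panel rests on 1 array a group and on the spread of other genes. Nlrc5 and Tap1 are filled in both fits of the left panel, and H2-D1 is filled in both fits of the right panel.

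The 2 arrays of ZEB1-knock down after tMCAO differed from each other in these genes. Replicate 1 was above replicate 2 in 9 of the 10, Psmb10 being the exception, with a median gap of 0.72 on the log2 scale and the widest gaps for Tap1 at 2.28 and Nlrc5 at 1.94. Over all 30525 genes replicate 1 was above replicate 2 in 48.3%, with a median of -0.02. In the other 5 groups the median gap of the 10 genes ran from -0.32 to 0.04. In the same pair of arrays the 18 other class I heavy chains had a median gap of 0.51, and 11 of the 12 lymphocyte markers that passed the filter were higher in replicate 1. Of the 17 lymphocyte markers on the array, 5 were not well above background in replicate 1 and 11 in replicate 2, so the size of that gap is not given. The lymphocyte markers summed to 1.78 and 0.75 in these arrays, against 0.97 and 1.12 in ZEB1-knock down before tMCAO. The part of lymphocytes in the gap was not tested. The 14 constitutive proteasome subunits went the other way, with a median of -0.34 and 1 of 14 higher in replicate 1. The 2 arrays of ZEB1-overexpression after tMCAO also differed from each other. Replicate 1 was above replicate 2 in 2 of the 10 genes (median gap -0.32), against 57.2% of all genes there. Of 16 lymphocyte markers 1 was higher in replicate 1, with a median gap of -1.24. The part of lymphocytes in this gap was not tested either.

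**Figure D5:**
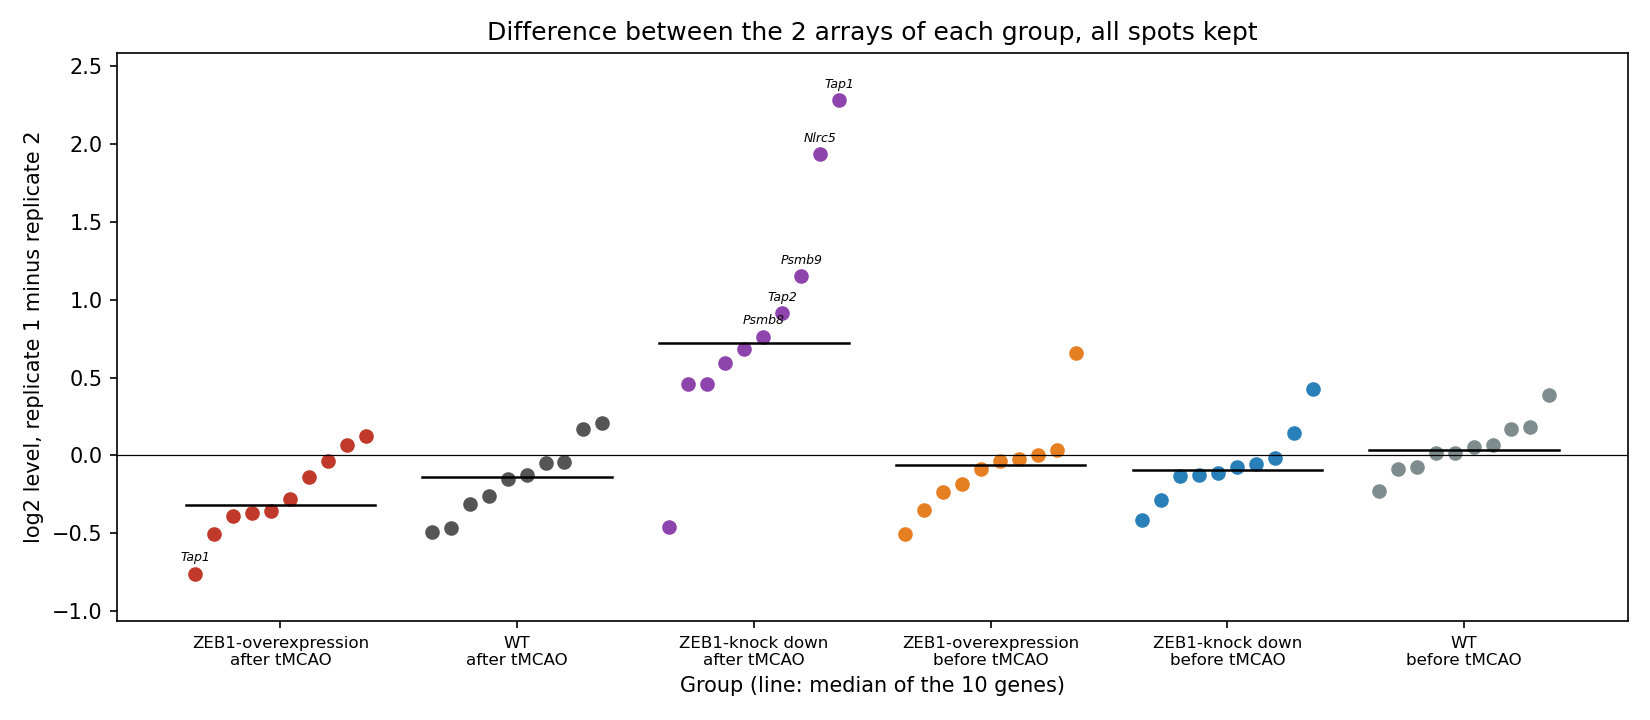
Difference between replicate 1 and replicate 2 of each group for the 10 genes, in log2 units with all spots kept, where each point is a gene and the line is the median of the 10. In ZEB1-knock down after tMCAO 9 of the 10 points lie above 0, with a median of 0.72, and genes with a gap of at least 0.7 are named.

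Among the neighbouring genes in ZEB1-knock down, with marked spots kept, 4 of 18 other class I heavy chains were higher after tMCAO than before it and 0 lower, where 16.6% of all genes were called. H2-T10 rose by 1.56, H2-T22 by 1.07, H2-Q7 by 1.0 and H2-Q2 by 0.86 on the log2 scale. With marked spots left out 2 of 10 passed, H2-T10 and H2-Q2. Of the interferon signalling list 4 of 26 were higher and 1 lower, a share near the same 16.6% of all genes. Irf8, a factor of the macrophage lineage, rose by 1.76, Irf9, the DNA-binding partner of the STATs, by 1.30 and Ifngr1, a receptor chain for interferon-gamma, by 0.68, while Rfxank, a subunit of the complex that occupies the X box, fell by 0.77. None of the 14 constitutive proteasome core subunits passed, with a median of 0.21, nor any of the 8 activators and assembly factors, among which Psme4 at 0.80 (limma adjusted p = 0.0740) differed most. None of the 9 loading partners passed, with Erap1, a trimming aminopeptidase, at 0.73 (limma adjusted p = 0.126).

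Cell markers moved with this comparison as well. Counts of markers higher or lower are of genes called at the threshold with marked spots kept. Of the microglia markers 7 of 12 were higher in ZEB1-knock down after tMCAO, with a median of 0.81, and their summed level was 62.0 and 54.6, against 38.8 and 39.9 before tMCAO. Of the monocyte and border macrophage markers 9 of 10 were higher, Ms4a7 by 3.27 and Ccr2 by 3.23 among them, and they summed to 28.2 and 26.9 after tMCAO, against 9.16 and 9.48 before it. Of the endothelial and mural markers 6 of 12 and of the neutrophil markers 3 of 11 were higher, where 16.6% of all genes were called. Of the 7 astrocyte markers 1 was called, Gfap, which rose by 2.14, and the median of the list was 0.13. Of the 8 neuron markers 0 were higher and 2 lower, Slc17a7 at -1.23 and Gad1 at -0.94. Of the 8 oligodendrocyte markers 1 was called, Mog at 0.99, and all 8 differences were above 0, with sums of 54.9 and 56.4 after tMCAO, against 40.1 and 39.3 before it. Of the 12 lymphocyte markers tested 1 was higher and 2 were lower. The 10 class I and immunoproteasome genes summed to 41.5 and 30.3 after tMCAO, against 24.4 and 26.2 before it. The part of these cells in the result was not tested. ZEB1-knock down after tMCAO has no WT or ZEB1-overexpression array after tMCAO on its slide, so whether the other genotypes changed alike after tMCAO was not tested.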

How the data were processed

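Total RNA of 12 samples was labelled with Cy3 and hybridised to single-colour Agilent arrays, per the labels' protocols. The authors deposited 1 scanner file an array, whose intensity values are linear, background-subtracted and spatially detrended by Agilent Feature Extraction 11.5.1.1, protocol GE1_1105_Oct12, per the file headers (the submitters' processing notes name version 9.1). The yes or no marks per spot (unit: other) were deposited in the same files by the authors. The deposited value tables hold log2 values, which equalled the log2 signal minus each array's 75th percentile. The columns of both arrays of ZEB1-knock down after tMCAO held each other's values (correlation with their own array 0.975).

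Each array's 75th percentile was subtracted from log2 signal, spots of a probe were averaged, and probes were named through the RefSeq gene table by accession, with 26762 probes named on the slide of 4 arrays and 33767 on the slide of 8. Probes had to be well above background (in at least 0.5 of their spots) on both arrays of some group, and the probe of highest mean level stood for its gene. Groups of a slide were fitted together with limma 3.58.1 in R 4.3.3 (lmFit, eBayes, two-sided) and p-values adjusted by the Benjamini-Hochberg method over all genes, with 0.05 as the threshold. The fit was tested on simulated data. Spots marked as non-uniform or population outliers were left out in the main fit. Up to 4 genes past the threshold are named from each list, by size of change, or else up to 2 with the largest difference. Where the rule would name a withheld gene, it is not reported here. The 10 genes, the lists and the rule for names were chosen with earlier results of these data known. The planned normexp correction used the median signal, since the mean signal was not used here. The number of arrays limits the precision. No column of per-sample values was left unassigned.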

Additional observations from a re-analysis of the deposited data

Results flagged for a closer look

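An H2-K1 probe went opposite ways before and after tMCAO. After tMCAO it lay at 2.80 and 2.92 in ZEB1-overexpression, against 2.43 and 2.46 in WT, a difference of 0.41 on the log2 scale. Before tMCAO it lay at 1.92 and 1.26 in ZEB1-overexpression, against 2.13 and 1.95 in WT, a difference of -0.45. Both ZEB1-overexpression arrays were above both WT arrays after tMCAO and below both before it, and the difference between these differences was not tested, since the times lie on slides of different design. All 4 spots after tMCAO were marked, as were 3 of the 4 before it. The other H2-K1 probe gave 0.30 after tMCAO and 0.05 before it, and neither probe passed the threshold at either time.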

How the results depend on the processing

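For ZEB1-overexpression over WT after tMCAO, the 516 genes called became 895 with marked spots kept, 329 under quantile normalization, 0 without the filter on dim probes, 940 with each probe on its own and 777 from the deposited table, and, with marked spots kept, 1426 with each probe on its own. Of the 10 class I and immunoproteasome genes, 0 instead of 2 were called under quantile normalization and without the filter, and 1 with the replicate block. Their median log2 fold change of 1.12 over the 4 genes tested was 0.35 over 10 with marked spots kept, 0.80 under normexp and 0.38 from the deposited table. For ZEB1-knock down after over before tMCAO, the 4460 genes called became 7391 under normexp, 2118 without the filter and 2313 with only these groups in the fit. The 2 members called became 1 under each of the last pair of settings, and their median of 1.32 was 0.80 with marked spots kept and 0.78 from the deposited table. Psmb9, at 1.61, was not called with marked spots kept (1.03) or from the deposited table (1.01), and Nlrc5, at 2.09, passed under normexp (2.03), with probes well above background on every array (2.09), from the deposited table (2.07) and with the replicate block. The cause of these shifts was not tested, beyond the larger number of genes tested without the filter.

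Before tMCAO, quantile normalization called 6, 1 and 6 genes instead of 0 for ZEB1-overexpression over WT, ZEB1-knock down over WT and ZEB1-overexpression over ZEB1-knock down. For ZEB1-overexpression over WT the median of 0.10 was 0.000748 with marked spots kept, 0.24 under normexp and 0.015 from the deposited table, and Nlrc5, at -0.04, turned to 0.20 under normexp and 0.037 under quantile normalization. For ZEB1-knock down over WT, H2-K1 turned to 0.026 under quantile normalization and to 0.053 with the replicate block and with slide column as a term, and Nlrc5, at -0.04, turned to 0.16 under quantile normalization. Nlrc5 in ZEB1-overexpression over ZEB1-knock down, at 0.01, turned to -0.12 under quantile normalization.

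Leaving out each array in turn, the genes called for ZEB1-overexpression over WT after tMCAO ran from 32 to 1049 (marked spots kept, 152 to 1933) and the members called from 0 to 2 (kept, 0 to 2), with member medians of 0.72 to 1.78. For ZEB1-knock down after over before tMCAO the genes called ran from 841 to 3976 (kept, 780 to 4682), the members called from 0 to 4 (kept, 0 to 6) and the medians from 0.010 to 1.61 (kept, 0.33 to 1.14). Before tMCAO the genes called ran from 0 to 2 for ZEB1-overexpression over WT (kept, 0 to 2), from 0 to 3 for ZEB1-knock down over WT (kept, 0 to 6) and from 0 to 2 for ZEB1-overexpression over ZEB1-knock down with marked spots kept. The medians ran from -0.038 to 0.20 for ZEB1-overexpression over WT and from 0.10 to 0.44 (kept, 0.078 to 0.28) for ZEB1-overexpression over ZEB1-knock down. Differences of single members changed sign in the following ranges. After tMCAO, ZEB1-overexpression over WT gave -0.18 to 0.31 for B2m, -0.020 to 0.37 for H2-D1 and -0.19 to 0.31 for Tapbp. ZEB1-knock down after over before tMCAO gave -0.066 to 0.39 for Psmb10 and, for Tap1, whose difference was 0.99, -0.15 without replicate 1 after tMCAO to 2.13 without replicate 2. ZEB1-overexpression over WT before tMCAO gave -0.13 to 0.041 for H2-D1, -0.23 to 0.16 for Nlrc5, -0.030 to 0.20 for Psmb10, -0.22 to 0.29 for Psmb9 and -0.038 to 0.14 for Tap2. ZEB1-knock down over WT before tMCAO gave -0.062 to 0.053 for H2-K1, -0.24 to 0.15 for Nlrc5, -0.35 to 0.065 for Tap2 and -0.26 to 0.026 for Tapbp. ZEB1-overexpression over ZEB1-knock down before tMCAO gave -0.065 to 0.078 for Nlrc5, -0.043 to 0.46 for Psmb9, -0.36 to 0.069 for Tap1 and -0.011 to 0.40 for Tap2. Where this left a group with 1 array, that array was taken to vary like the others.

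The main fit did not treat the replicate numbers as pairs. Gaps between replicates 1 and 2 correlated at 0.09 between the groups of the 4-array slide and at -0.20 to 0.24 on the 8-array slide. Such correlations cannot exclude that samples were paired. With the replicate block 444 genes were called for ZEB1-overexpression over WT after tMCAO, of which Tap1 remained and Nlrc5 was lost at 1.88 (limma adjusted p = 0.0843), and 4686 for ZEB1-knock down after over before tMCAO. Other alternatives left 413 of 435 values of single members on the same side of 0 and of the threshold.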
